A study of Xenopus laevis with 12 samples.

Results

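Biobots are balls of epidermis that form by themselves from an explant. The tissue is the animal cap, the ectoderm taken from the animal hemisphere of a Xenopus laevis embryo at Nieuwkoop and Faber stage 9, which heals into a sphere and becomes a swimming, ciliated body in plain medium. Members were chosen by label: the 4 libraries titled as biobots, of 12 libraries in the series, with genes ranked by their mean FPKM (fragments scaled by gene length and library size) over those 4 pools. The other 8 libraries came from bots that had received an implant, and they enter the values given here only through the size factors that scale the deposited FPKM.

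All 4 pools, BB1 to BB4, held untreated caps with no implant, and no genetic change or drug is given for them. BB1 was a pool of 16 bots and was sent for sequencing in a first submission. BB2, BB3 and BB4 held 6, 6 and 5 bots and were sent in a second one. The submission and the number of bots cannot be told apart, and the first submission holds 1 biobot library only, so it has no within-batch value of its own. The age of the bots at RNA collection is not given in the sources used here, and nothing says whether the pools came from separate clutches. Library totals ran from 29664449 counts in BB1 to 35995421 counts in BB2. A pair of pools stood apart from the rest: BB1 for some of the most abundant genes and BB3 for haemoglobin and other blood and liver genes, so values without them are given where they matter.

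As background, the embryonic skin of Xenopus is a mucociliary epithelium. Multiciliated cells beat and move fluid, goblet cells secrete mucus and lectins, ionocytes pump protons and other ions, and small secretory cells release serotonin and defence molecules, all over a basal layer of progenitors. Animal caps are known to adopt this fate when they receive no inducing signal. Xenopus laevis is an allotetraploid, so that most genes were once present as a pair of homeologs, one on a long (.L) and one on a short (.S) chromosome.

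The most abundant transcripts of biobots encoded mitochondrial, iron-storing, secreted, keratin and glycolytic proteins. COX1, the catalytic subunit of cytochrome c oxidase made in the mitochondrion, was the most abundant transcript, at 16176, 16107, 15683 and 15720 FPKM in BB1 to BB4. The spread of COX1 over the pools was small (15921 ± 256 FPKM, SD, n = 4). Next came ftmt.S, a ferritin that stores iron, at 14295, 14249, 17849 and 15083 FPKM. The third gene was itln1.L, intelectin, the lectin that the larval skin secretes, at 13769, 11831, 12302 and 13693 FPKM. The order of these 3 genes was not the same in every pool, since ftmt.S stood above COX1 in BB3.

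Keratins, the intermediate filament proteins of epithelia, held 3 of the 25 first places. The highest, krt12.4.S, was at 11867, 9067, 9736 and 9623 FPKM in BB1 to BB4. Both copies of krt7 followed, krt7.S at 6859, 5527, 6137 and 6015 FPKM and krt7.L at 8568, 4015, 3964 and 3936 FPKM. BB1 lay far above the other 3 pools for krt7.L, and those 3 lay close together.

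Enzymes of glucose metabolism were prominent as well. The lactate dehydrogenase gene ldhb.S was at 9081, 8557, 9317 and 10559 FPKM. The gluconeogenic enzyme fbp1.L (fructose-bisphosphatase) was at 6111, 4026, 5323 and 5263 FPKM, and gapdh.S, of glycolysis, at 5582, 4672, 5146 and 4924 FPKM. BB4 was the highest pool for ldhb.S, and BB1 was the highest and BB2 the lowest for fbp1.L and gapdh.S.

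The rest of the 25 included slc25a5.L (6537 ± 750 FPKM, SD, n = 4), the carrier that exchanges ADP and ATP across the inner mitochondrial membrane, the second ferritin fth1.1.S (6299 ± 747 FPKM) and the mitochondrial genes COX3 (6198 ± 725 FPKM), COX2 (5193 ± 529 FPKM) and CYTB (2025 ± 82.1 FPKM). XB5953580.L, unnamed but annotated in the file as similar to a pentraxin fusion protein, was the steadiest gene of the group after COX1, at 5995, 6045, 6122 and 6443 FPKM. Small calcium-binding S100 proteins took 2 places, LOC108699649 (5838 ± 743 FPKM) and LOC108700425 (2228 ± 247 FPKM). The chaperone hspa1l.S (4295 ± 392 FPKM) and the metallothionein mt4.L (3640 ± 1124 FPKM), which binds zinc and copper, were there too. The translation genes were eef1a1.L (2072 ± 278 FPKM), rps2.L (2011 ± 278 FPKM) and LOC108708523 (2020 ± 322 FPKM), annotated as translationally controlled tumor protein. LOC108701721 (1835 ± 408 FPKM) has no annotated function. The file lists ccdc50.L under 2 gene entries, and the one at 5195 ± 873 FPKM is a model of 544 bases on an unplaced scaffold, whereas the entry on chromosome 5L was at 3.08 ± 0.123 FPKM.

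**Figure D1:**
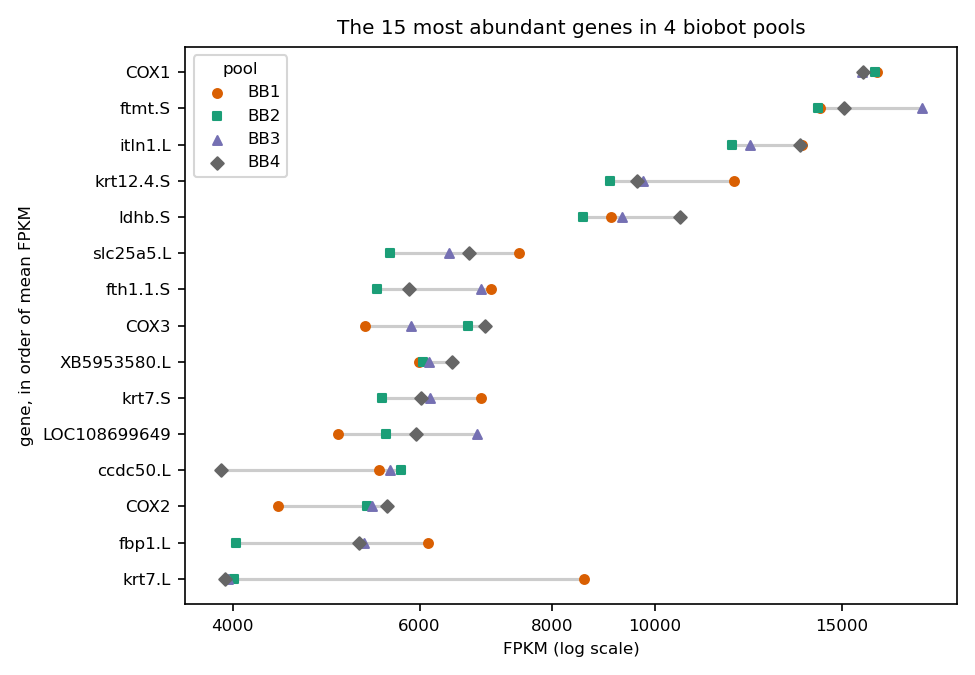
FPKM (log scale) of the 15 genes with the highest mean, one symbol per pool and a grey line over the range of the 4 pools. Most genes span a narrow range, and krt7.L in BB1 (8568 FPKM) lies far from the 3 other pools (3936 to 4015 FPKM).

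Expression was concentrated in few genes. The 10 most abundant genes carried 14.6 ± 0.442% of the summed FPKM, the 100 most abundant 36.9 ± 0.872% and the 1000 most abundant 70.5 ± 0.818% (SD, n = 4). Between 212 genes in BB1 and 248 genes in BB2 were enough to hold 50% of it. At a mean of 1 FPKM or more stood 17265 of 44478 genes, and 16110 genes reached that level in every pool, while 10776 genes had no count in any of them. Of the 100 most abundant genes of each pool, 81 were shared by all 4 pools.

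Grouped by function, with classes drawn up after the abundant genes had been seen, cytosolic ribosomal proteins were the largest class. Their 135 genes gave 14.9 ± 0.873% of the summed FPKM and 38 of the 100 most abundant genes. The 13 proteins encoded by mitochondrial DNA gave 5.31 ± 0.427%, glycolysis and gluconeogenesis 4.47 ± 0.421%, keratins 4.03 ± 0.709% and 4 ferritin genes 3.52 ± 0.185%. Respiratory chain and ATP synthase subunits of the nuclear genome, led by atp5f1b.S, gave 2.67 ± 0.418%. S100 proteins gave 1.32 ± 0.117% and heat shock proteins 1.11 ± 0.0224%. The 15 classes together held 692 genes, 41.5 ± 0.576% of the summed FPKM and 72 of the 100 most abundant genes.

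The classes did not move together from pool to pool. The keratin share was 5.09% in BB1 and 3.69%, 3.60% and 3.73% in BB2 to BB4, so BB1 lay above the rest. Nuclear subunits of the respiratory chain and ATP synthase ran the other way, at 2.05% in BB1 and 2.76%, 2.91% and 2.95% in the others. The vacuolar proton pump, at 0.589% in BB1 and 0.768%, 0.745% and 0.757% in BB2 to BB4, was also lowest in BB1. Collagens were highest in BB1 (0.140%) and lowest in BB4 (0.0584%). The part of the submission or of the number of bots in these shifts was not tested.

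**Figure D2:**
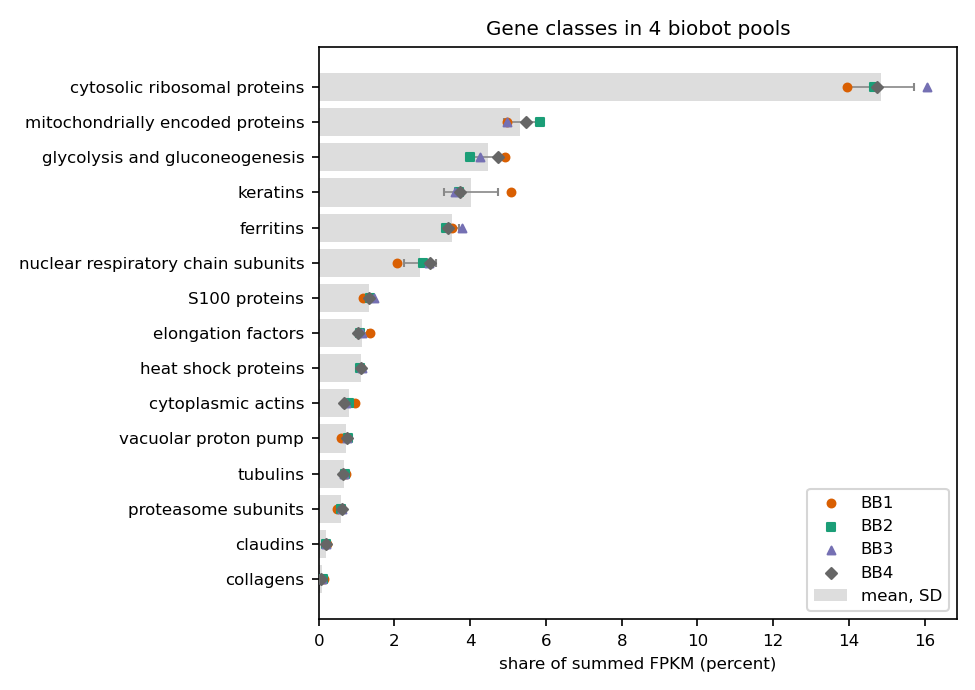
Share of summed FPKM (percent) for 15 classes of genes, with bars for the mean, whiskers for the SD and one symbol per pool. Ribosomal proteins lead at 14.9%, and keratins in BB1 (5.09%) lie above the other pools.

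Each skin cell type was then read through a list of its marker genes. Both the number of cells of a type and the RNA per cell set such a level in bulk RNA, and the 2 cannot be told apart here. Over the 8 epidermal lists, 150 of 205 genes (73.2%) were at a mean of 1 FPKM or more, beside 48.1% of all protein-coding genes, and 12 genes had 3 counts or fewer in every pool. The lists were chosen with earlier results of these data known, so these counts describe the lists and support nothing further.

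Genes for motile cilia were on throughout. All 31 genes of the axoneme list were at 1 FPKM or more, with a summed level of 2536, 2077, 2016 and 1996 FPKM in BB1 to BB4. The beta-tubulin tubb4b.L, which builds ciliary microtubules, made up much of it at 1273, 1001, 998 and 977 FPKM, and its homeolog tubb4b.S was at 186 ± 9.77 FPKM. The radial spoke gene rsph1.L was at 127 ± 7.38 FPKM, and the genes for inner microtubule proteins tekt2.S at 81.1 ± 11.7 FPKM, enkur.L at 77.7 ± 8.45 FPKM and tekt3.L at 60.0 ± 13.8 FPKM. BB1 was the highest pool for tubb4b.L, tekt2.S, enkur.L and tekt3.L, and BB4 was the highest for rsph1.L. Heavy chains of the dynein motors, named after their values were seen, were lower, from dnah9.S at 7.64 FPKM and dnah7.L at 6.28 FPKM to dnah5.L at 2.55 FPKM.

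The regulators that set up multiciliated cells were far lower than the axoneme genes they are known to switch on. Their 27 genes summed to 92.5 ± 6.58 FPKM, and 11 reached 1 FPKM. The cell cycle factors reused for centriole amplification led, e2f5.S at 22.9 ± 0.956 FPKM, e2f5.L at 14.6 ± 2.74 FPKM and e2f4.S at 5.38 ± 1.01 FPKM. The master regulator of motile cilia, foxj1, was at 11.5 ± 1.54 FPKM for foxj1.S and at 5.34, 11.3, 10.03 and 11.1 FPKM in BB1 to BB4 for foxj1.L, and ccdc78.S, of the centriole-building deuterosome, at 10.3 ± 0.970 FPKM. The other regulators ranged down to 0. The early regulator gmnc was at 0.858 ± 0.108 FPKM for gmnc.L and 0.433 ± 0.400 FPKM for gmnc.S, and foxn4.L at 0.707 ± 0.291 FPKM. The lowest members, singled out after their values were seen, were close to 0. Over all 4 pools mcidas.L had 0 counts, mcidas.S 8, cdc20b.L 4, ccno.L 11 and ccno.S 10, and deup1.L was at 0.139 FPKM.

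Ionocyte genes were strong in every pool. Of 31 genes 28 reached 1 FPKM, and their sum was 1739, 2086, 2317 and 2165 FPKM in BB1 to BB4, lowest in BB1. The vacuolar proton pump subunits that mark this cell type were among the highest, atp6v1b1.L at 451, 443, 469 and 493 FPKM, atp6v1g3.L at 166, 300, 382 and 340 FPKM and atp6v1c2.L at 110, 145, 168 and 161 FPKM. BB1 was the lowest pool for atp6v1g3.L and atp6v1c2.L but not for atp6v1b1.L. Carbonic anhydrase, which supplies protons to the pump, was at 251 ± 32.0 FPKM for ca2.S and 162 ± 34.5 FPKM for ca2.L, and the pump subunit atp6v0d2.L at 109 ± 25.6 FPKM. The transcription factor that specifies ionocytes, foxi1.L, was at 50.5, 79.2, 78.4 and 75.8 FPKM, the highest level of the 43 listed epidermal transcription factor genes.

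Goblet cell products were dominated by itln1.L, described above. The protein disulphide isomerases agr2.S (200 ± 23.5 FPKM) and agr2.L (261, 133, 161 and 133 FPKM in BB1 to BB4), needed for mucin folding, came next, followed by the mucin glycosyltransferase galnt3 (10.6 ± 2.78 FPKM for galnt3.S and 1.33 ± 0.503 FPKM for galnt3.L). The secretory regulator spdef.S was at 1.96, 2.64, 3.52 and 4.86 FPKM. Only 8 of 19 listed goblet symbols were found in the table, since several mucins carry locus numbers there. Among genes picked after their values were seen, LOC108715209, annotated as mucin-5B, was at 622, 600, 516 and 584 FPKM, and otogl2.L, annotated as an otogelin, at 149, 132, 79.8 and 159 FPKM. The IgGFc-binding protein genes LOC108696889 and LOC108696890 were at 489, 215, 113 and 217 FPKM and at 262, 228, 156 and 198 FPKM. LOC108697796, annotated as mucin-2, was at 13.1, 19.0, 5.75 and 58.5 FPKM. BB3 was the lowest pool for these 5 genes, but not for 2 others picked with them, LOC398308, a lectin (122, 139, 173 and 237 FPKM), and LOC108709516, annotated as uromodulin (2.89, 7.75, 20.3 and 28.1 FPKM), which were lowest in BB1. The goblet list itself was silent for gp2.S and itln2.L, which had 0 counts, and gp2.L was at 0.106 FPKM. The paper names gp2 among skin genes lower in neurobots than in biobots, after mapping frog genes to human symbols. Which frog genes that mapping counted as gp2 was not examined here.

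Secreted lectins and defence genes picked in the same way were also abundant. The galectin lgals3.L was at 1204, 881, 1051 and 1105 FPKM and fucolectin.S, which binds fucose, at 1024, 672, 795 and 1008 FPKM. Complement c3.L was at 512 FPKM in BB1 and 233, 224 and 206 FPKM in BB2 to BB4.

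The small secretory cell list had the lowest sum of the lists for specialised cell types. Its 20 genes summed to 40.9, 53.3, 54.0 and 71.6 FPKM in BB1 to BB4, and 6 reached 1 FPKM. The lists differ in make-up, with the goblet sum dominated by itln1.L, so these sums do not rank the cell types. The amine transporter slc18a1.S was the main one, at 21.1, 28.8, 27.6 and 33.6 FPKM. The specifying factor foxa1 followed, foxa1.S at 7.46 ± 1.21 FPKM and foxa1.L at 1.69, 5.04, 4.76 and 10.3 FPKM. The enzymes of serotonin synthesis were ddc.L (5.42 ± 1.41 FPKM) and tph1.L (3.06 ± 1.64 FPKM), and the prohormone convertase pcsk1.S was at 2.83 ± 1.28 FPKM. BB4 was the highest pool and BB1 the lowest for slc18a1.S, foxa1.L, ddc.L and tph1.L.

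The basal cell list had a low sum as well, at 88.4, 62.0, 61.1 and 56.8 FPKM over 16 genes, highest in BB1. Only 10 of 14 listed basal symbols were found by name, so the sum does not measure basal cells as a whole. The cadherin cdh3.L was at 17.8 ± 2.04 FPKM and cdh3.S at 11.9 ± 1.96 FPKM. The progenitor factor tp63.S was at 10.4, 7.70, 7.02 and 6.19 FPKM and tp63.L at 9.75, 6.87, 6.17 and 6.22 FPKM. The laminin-binding integrins itga3.S (8.80 ± 4.48 FPKM) and itga6.S (3.93 ± 2.12 FPKM) completed the list's top 6. The hemidesmosome gene col17a1.L was at 0.273 FPKM.

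The barrier of the superficial layer was represented by junction genes, 28 of 34 at 1 FPKM or more and a sum of 2712 ± 313 FPKM. The tight junction claudins cldn4.S (344 ± 31.9 FPKM), cldn4.L (317 ± 26.2 FPKM) and cldn7.L (269 ± 15.1 FPKM) and the adhesion genes epcam.L (326 ± 60.9 FPKM) and epcam.S (315 ± 87.5 FPKM) led. E-cadherin came almost entirely from cdh1.S, at 225, 123.3, 121 and 120 FPKM in BB1 to BB4, with BB1 above the rest. Of the 43 genes for epidermal transcription factors 38 reached 1 FPKM. After foxi1.L came grhl1.L (62.7 ± 10.09 FPKM), dlx3.S (55.5 ± 2.99 FPKM), grhl3.S (52.3 ± 2.39 FPKM), msx1.S (48.0 ± 4.65 FPKM) and msx2.L (45.9 ± 9.38 FPKM). Of these, grhl1 and grhl3 are barrier regulators and the others homeobox genes of the non-neural ectoderm. The sum of this list was the steadiest of the 8, at 770 ± 15.7 FPKM.

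Genes for DNA replication and mitosis, again picked after their values were seen, were on in every pool. All 29 were at 1 FPKM or more and 24 at 5 FPKM or more, beside 48.1% of all protein-coding genes at 1 FPKM or more. Since the genes were picked with their values known, these counts support nothing further. Their sum was 311.3, 361.5, 422.4 and 359.3 FPKM in BB1 to BB4. The replication clamp pcna.L was at 38.7 ± 7.61 FPKM, the mitotic kinase cdk1.L at 23.0 ± 3.12 FPKM and its cyclin ccnb1.2.S at 28.0 ± 4.61 FPKM, while the proliferation marker mki67.L was at 1.53 ± 0.279 FPKM.

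Markers of other lineages were mostly under 1 FPKM. Of 310 genes on 18 lists, 141 (45.5%) had 3 counts or fewer in every pool, beside 25.3% of all protein-coding genes, and 84 had no count at all. At 1 FPKM or more stood 45 genes (14.5%) and at 5 FPKM or more 18. Leaving out BB3, for reasons given below, those counts were 38 and 16. These lists too were chosen with earlier results of these data known, so the counts describe the lists only.

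Most genes of the nervous system were low. Here and in the lists below, genes given for their 0 or near 0 counts were singled out after their values were seen. Of 30 genes for neurons 2 reached 1 FPKM, syt1.L, which encodes a calcium sensor of vesicle release, at 45.4, 45.1, 45.1 and 47.4 FPKM and gap43.S at 2.37, 1.302, 1.58 and 0.683 FPKM. The next, syn1.L, averaged 0.645 FPKM, and elavl3.L and neurod1.L had 1 count each over the 4 pools. Neural plate genes were led by otx2.L (3.51 ± 0.375 FPKM), an anterior patterning gene, otx2.S (1.22 ± 0.306 FPKM) and sox3.S (0.551 ± 0.0659 FPKM), whereas rax.L, rax.S and zic1.S had 0 counts. Glial genes were led by mbp.S (4.06 ± 0.321 FPKM), mbp.L (2.03 ± 0.211 FPKM) and slc1a3.L (1.99 ± 0.624 FPKM), with olig2.L and olig2.S at 0 counts. The 20 photoreceptor genes summed to 0.331 ± 0.119 FPKM, led by gnat2.S (0.114 FPKM), sag.S (0.0657 FPKM) and sag.L (0.0327 FPKM), and the 16 lens genes to 2.09 ± 0.582 FPKM, led by crybb2.L (0.630 FPKM), cryba1.L (0.474 FPKM) and crybb3.L (0.423 FPKM).

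Markers of mesodermal organs were low or not detectable at this depth. The 28 skeletal muscle genes summed to 2.59 ± 0.446 FPKM, of which ckm.L, a creatine kinase, held 1.46 ± 0.117 FPKM, tnni2.S 0.282 FPKM and tnnc2.S 0.189 FPKM, and myf5.L and myf6.L had 0 counts. Heart genes were led by nkx2-5.L (1.79 ± 0.694 FPKM), nkx2-5.S (0.572 FPKM) and tnni3.L (0.0658 FPKM), with tbx5.L and tbx20.L at 0 counts. Notochord and cartilage genes reached 0.943 FPKM for col2a1.L, 0.875 FPKM for col2a1.S and 0.121 FPKM for nog.L, and shh.L had 0 counts. Endothelial genes stayed under 1 FPKM, with aplnr.L at 0.992, vwf.L at 0.487 and tie1.L at 0.447 FPKM and cdh5.L and cdh5.S at 0 counts. Among kidney genes nphs1.S was at 0.256 FPKM, with wt1.L and wt1.S at 0 counts. The Hox cluster genes, which mark trunk position, had 3 of 56 at 1 FPKM or more.

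A few lists gave partial signals. Among 18 neural crest genes 7 reached 1 FPKM, with sox9.L at 6.45, 10.7, 12.2 and 8.76 FPKM, sox9.S at 3.79 ± 1.78 FPKM and ets1.L at 3.39 ± 0.626 FPKM, while the crest regulators sox10.L, sox10.S and foxd3.S had 0 counts. Pigment genes were led by pmel.S (1.65 ± 1.24 FPKM), mitf.L (1.03 ± 0.268 FPKM) and mlana.L (0.972 FPKM). The cement and hatching gland list was carried by agr2.S and agr2.L, which the goblet list also holds, and by ag1.S (6.19 ± 1.89 FPKM). Of the germ cell genes, the RNA helicase ddx4.L was at 11.6, 7.86, 6.10 and 8.02 FPKM, tdrd6.L at 1.85 ± 0.754 FPKM and ddx25.L at 0.536 FPKM, and nanos1.L had 0 counts.

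The fibroblast and mesenchyme list was higher. Of its 16 genes 12 reached 1 FPKM, with a sum of 585, 526, 532 and 378 FPKM in BB1 to BB4. The fibrillar collagen col1a2.L was at 197, 115, 110 and 76.0 FPKM, col1a1.S at 100, 70.2, 72.2 and 41.5 FPKM and the proteoglycan lum.L at 80.8, 90.0, 124 and 79.4 FPKM. The other members at 5 FPKM or more were col3a1.L (55.0 ± 19.1 FPKM), col3a1.S (54.5 FPKM), lum.S (36.2 FPKM), postn.L (22.4 FPKM), dcn.L (21.9 FPKM), dcn.S (14.4 FPKM) and col1a2.S (7.21 FPKM), which encode collagens and the matrix proteins bound to them. BB4 was the lowest pool for the 4 genes of col1a1.S, col1a2.L, col3a1.L and col3a1.S. Other genes of the same list were near 0, with pdgfra.L at 4 and pdgfra.S at 10 counts over the 4 pools and tcf21.L and tcf21.S at 0. Which cells the transcripts of this list came from was not tested.

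**Figure D3:**
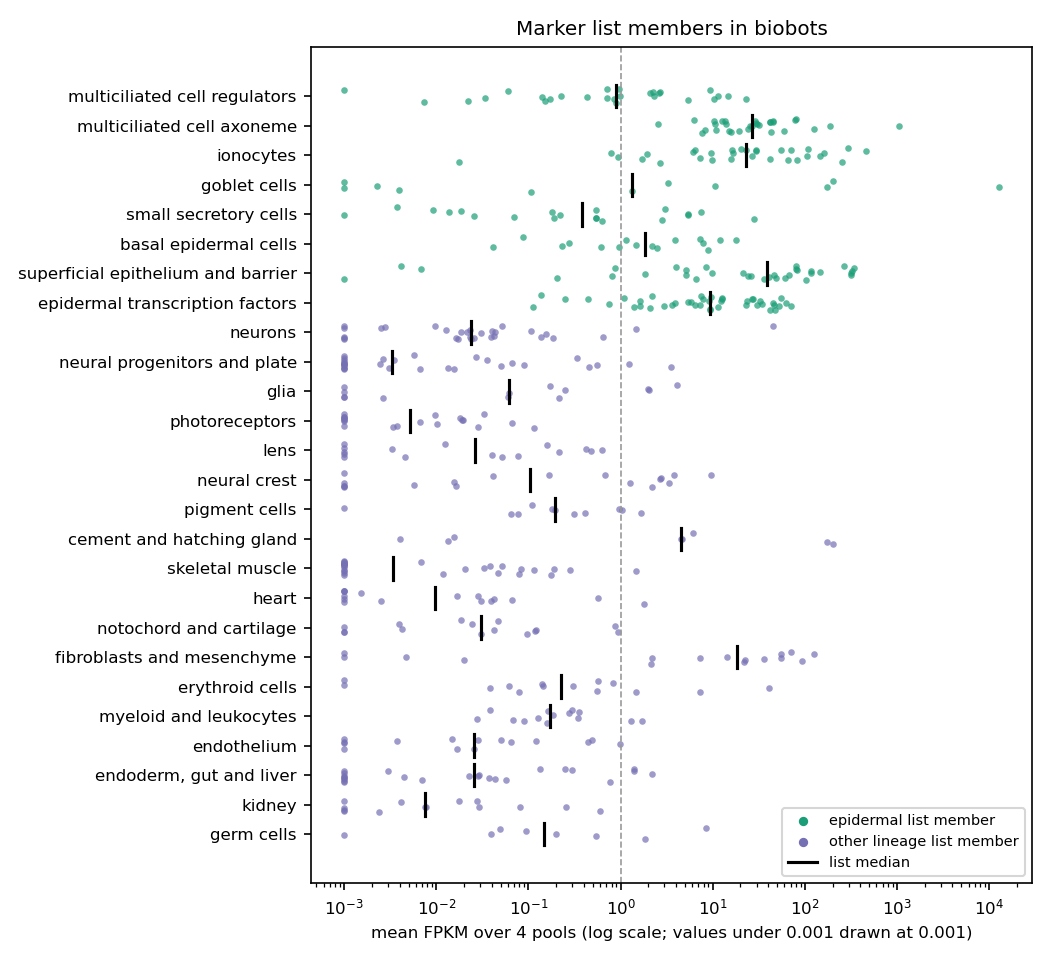
Mean FPKM over the 4 pools (log scale) of every gene on 8 epidermal lists (green) and 18 lists of other lineages (purple), with a black bar at the list median and a dashed line at 1 FPKM. Axoneme, ionocyte and barrier medians lie above 20 FPKM, and other-lineage medians lie under 1 FPKM except for fibroblasts (18.2 FPKM) and cement and hatching gland (4.58 FPKM).

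BB3 carried transcripts of blood that were near 0 in the other pools. The globin hbd.S was at 163.5 FPKM (3007 counts) in BB3 and at 0 counts in BB1, BB2 and BB4, and hba2.L was at 29.0 FPKM in BB3 and at 0.132, 0 and 0 FPKM in BB1, BB2 and BB4. The 26 haemoglobin genes with any count, gathered after this was seen, summed to 1073 FPKM in BB3 and to 3.33, 4.45 and 6.201 FPKM in BB1, BB2 and BB4. The erythroid list summed to 200.4 FPKM in BB3 and averaged 3.03 FPKM without it, so BB3 alone set its mean.

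White cell and liver genes moved with the globins. The neutrophil enzyme mpo.L was at 6.91 FPKM in BB3 and at 0, 0.0110 and 0 FPKM in BB1, BB2 and BB4, mpo.S at 1.18 FPKM and at 0.1001, 0.0108 and 0.126 FPKM, and mmp7.L at 5.21 FPKM and at 0.0215, 0 and 0 FPKM. The liver apolipoprotein apoa1.L was at 8.65 FPKM in BB3 and at 0, 0.0247 and 0.0290 FPKM in the others, apoa1.S at 4.71 FPKM and at 0.195, 0.391 and 0.258 FPKM, and the thyroid hormone carrier ttr.L at 3.84 FPKM and at 0.935, 0.201 and 0.551 FPKM. Without BB3 the myeloid list averaged 1.09 FPKM and the list of endoderm, gut and liver 2.33 FPKM. Globins did not all move alike. The larval globin hba-l5.L stayed at 1.12, 1.51, 1.18 and 2.06 FPKM in BB1 to BB4, and hba1.L was at 0.185, 0.0925, 0.277 and 1.74 FPKM. Its homeolog hba1.S was highest in BB3, at 0.258, 0.242, 1.68 and 0.0570 FPKM in BB1 to BB4. Far higher in BB3 were hba3.L, at 230.6 FPKM, and hba4.S, annotated as alpha-T4 globin, at 149.5 FPKM. Whether the globins of BB3 were larval or adult forms was not tested.

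Among genes at a mean of 1 FPKM or more, 25 were at least 5 times higher in BB3 than in each other pool, against 16 in BB1, 1 in BB2 and 3 in BB4. Many of these genes reached that mean only through the pool where they were high, so the counts describe the pools and support nothing further. Of the 25 genes of BB3, 16 were haemoglobins, and 10 had 0 counts in the other 3 pools. The remaining 9 included fetub.L, rbp4.S and LOC108699425 (coagulation factor XIII B chain), which encode plasma proteins, and prtn3.S, a neutrophil protease. Where these transcripts came from was not tested. In summed FPKM, the epidermal lists in BB3 were within the range of the other pools for cilia and barrier genes. They were above it for ionocytes (2317 FPKM) and epidermal transcription factors (793 FPKM). The FPKM of all genes also summed highest in BB3, to 685457, against 651008, 614704 and 648180 in BB1, BB2 and BB4. As shares of those totals, the ionocyte list was higher in BB2 than in BB3, and the list of epidermal transcription factors was lowest in BB3. Shares of the other lists were not compared.

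BB1 was the other pool that stood apart, and it did so for some of the most abundant genes. Over the 500 most abundant genes the median coefficient of variation was 12.2% in all 4 pools and 9.72% without BB1. It was not computed without each of the other pools, so the drop cannot be called particular to BB1. BB1 to BB4 were the highest pool for 129, 17, 304 and 50 of these genes and the lowest for 210, 203, 22 and 65. Of those 500 genes 16 were at least 1.5 times higher in BB1 than in each other pool and 16 at least 1.5 times lower, beside 0 and 4 for BB2, 0 and 1 for BB3 and 0 and 1 for BB4. The gene with the largest coefficient of variation, XB5774338.L, annotated like XB5953580.L as similar to a pentraxin fusion protein, was at 2127 FPKM in BB1 and at 141, 93.5 and 66.6 FPKM in BB2 to BB4. The elongation factor eef1a1o.S, named for its oocyte form, was at 635 FPKM in BB1 and at 154, 188 and 161 FPKM, and the keratin krt70.S at 545 FPKM and at 166, 215 and 176 FPKM. LOC108696889 and c3.L, given above, were the other 2 of the 5 most variable. The part of the submission or of the number of bots was not tested here either.

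**Figure D4:**
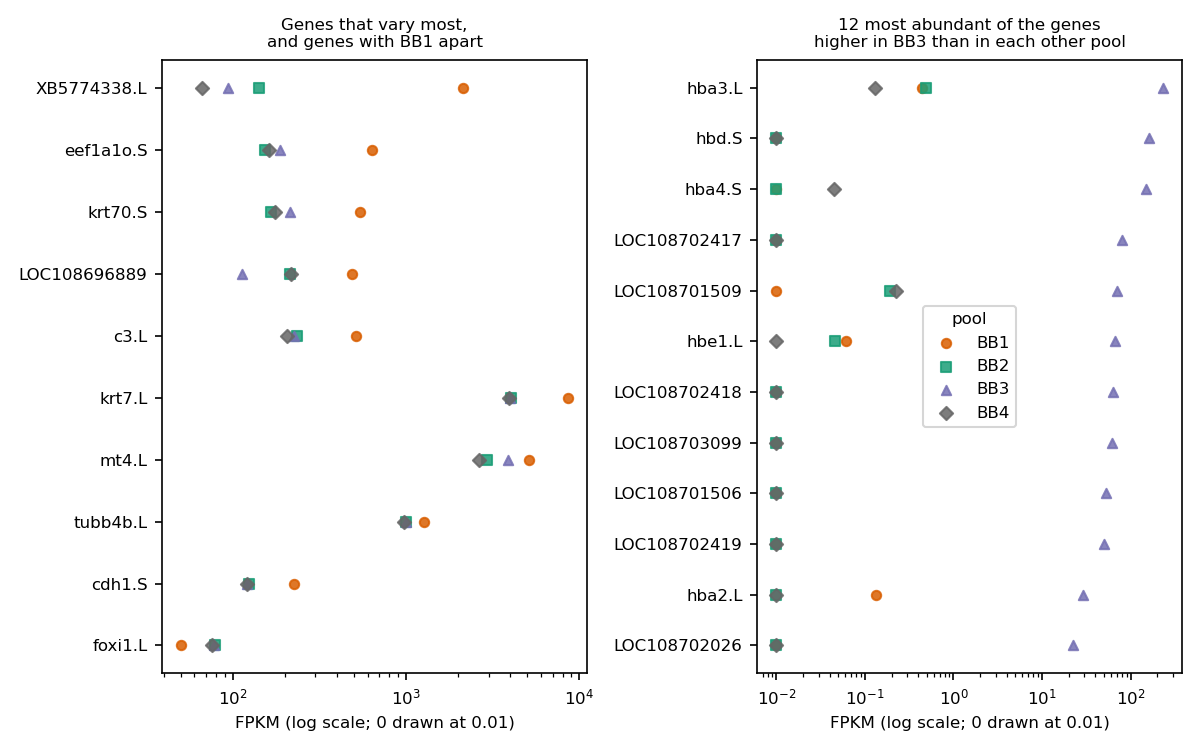
FPKM (log scale, with 0 drawn at 0.01) by pool for the 5 most variable abundant genes and 5 further genes with BB1 at one end (left), and for the 12 most abundant genes at least 5 times higher in BB3 than in each other pool (right). XB5774338.L reached 2127 FPKM in BB1, and hbd.S reached 163.5 FPKM in BB3 with 0 counts elsewhere.

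The balance of homeologs was then measured. Genes named .L gave 56.5 ± 0.537% of the FPKM of all genes named .L or .S, from 12713 and 9556 genes. On the L chromosomes as a whole, unnamed loci included, the share was 56.1 ± 0.480%, from 26020 genes against 18415 on S chromosomes. Both shares rest on more genes on the L side than on the S side, so they do not give a level per gene. Among 7802 pairs with both copies in the table the .L share was 52.2 ± 0.345%, and 55.3 ± 0.308% once 5 pairs with a copy among the 10 most abundant genes were left out. By chromosome the L share was highest for chromosome 8 (66.4 ± 0.342%), followed by 6 (63.4 ± 1.54%), 1 (62.8 ± 0.700%) and 5 (61.0 ± 0.254%), and it was near parity for chromosomes 4 (49.4 ± 1.12%) and 9_10 (49.5 ± 0.284%). Chromosomes 6 and 1 did not differ beyond their spread. Such shares can be moved by single genes and were not recomputed without the most abundant ones. Of all summed FPKM, ftmt.S on 4S held 2.37%, krt12.4.S on 9_10S 1.55% and slc25a5.L on 8L 1.01%. They also rest on unequal numbers of genes, such as 2991 on 8L and 1807 on 8S.

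Pair by pair, the .L copy was favoured more often than the .S copy. Of 6040 pairs with enough counts, the quasi-likelihood test of edgeR (p adjusted by Benjamini-Hochberg) called .L higher in 2977 (49.3%) and .S higher in 1949 (32.3%), with each pool as a block and gene length in the offset. With a difference of at least 1 on the log2 scale as well, .L was higher in 2038 (33.7%) and .S in 1130 (18.7%). The median difference was 0.32 on the log2 scale (.L over .S), and the median size of the difference, whatever its direction, was 1.09. In 85.2% of the tested pairs the same copy was the higher one in all 4 pools. The .L share of all calls, 60.4%, depends on where 0 is placed. With TMM scaling (trimmed mean of M-values) of .L against .S columns, which brings that median to 0.0045, 2462 pairs were called .L higher and 2455 .S higher, a share of 50.1%. The counts that follow are therefore given beside 49.3% and 32.3%, and differences can be read against the shift of 0.32.

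Without TMM scaling, the median difference was above 0 at each level from 1 FPKM up. Pairs whose higher copy was under 1 FPKM were not grouped by level. Where the higher copy was at 1 to 10 FPKM the median difference was 0.33 over 2727 pairs, at 10 to 100 FPKM 0.30 over 2195 pairs, at 100 to 1000 FPKM 0.36 over 353 pairs and above that 0.46 over 36 pairs. One copy was effectively silent in a minority of pairs. The .S copy had 3 counts or fewer in every pool in 75 pairs whose .L copy averaged 1 FPKM or more, and the .L copy in 38 pairs whose .S copy did.

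The size of the difference varied between functional classes. Ribosomal protein pairs lay close to parity, with a median size of 0.441 on the log2 scale over 55 pairs against 1.09 over all tested pairs, and 29 were called .L higher and 14 .S higher, which turned to 19 and 27 with TMM scaling. Proteasome pairs were close too (0.584 over 31 pairs, 18 called .L higher and 6 .S higher, and 12 and 10 with TMM scaling). Keratin pairs were far apart (2.75 over 12 pairs, 4 called .L higher and 6 .S higher), as were pairs for glycolysis and gluconeogenesis (2.45 over 16 pairs, 8 called .L higher and 6 .S higher, which turned to 5 and 7 with TMM scaling). Vacuolar proton pump pairs leaned to .L, with 10 of 13 called .L higher and 3 .S higher and a median difference of 1.22. With TMM scaling these were 9 and 3. No test of one class against the others was made.

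Several abundant genes, epidermal or of general metabolism, came mainly from 1 copy. The pairs named here and in the next paragraph had a copy among the highest genes of all or of an epidermal list. That choice was made on the same pools and favours a higher level in the copy that led to it. Their calls and p-values therefore add no support, and the levels describe these pairs only. For krt12.4 the .L copy was at 2190, 1130, 1394 and 1429 FPKM and the .S copy at 11867, 9067, 9736 and 9623 FPKM in BB1 to BB4, without overlap (log2 .L over .S -2.75, adjusted p = 7.1e-07, edgeR). For ldhb the .L copy was at 53.0, 103, 93.8 and 131 FPKM and the .S copy at 9379 FPKM on average (-6.69, adjusted p = 6.91e-07). For cdh1 the .L copy was at 9.69, 9.06, 7.58 and 7.84 FPKM, against 225 FPKM in BB1 and 120.3 to 123.3 FPKM in BB2 to BB4 for the .S copy (-4.06, adjusted p = 7.38e-07). In these 3 pairs .S was the higher copy in every pool. The .S copy was also higher for fth1.1 (592 and 6299 FPKM for .L and .S, -3.42, adjusted p = 1.25e-07) and gapdh (965 and 5081 FPKM, -2.41, adjusted p = 2.68e-07).

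The .L copy led in other pairs. It was at 6537 FPKM against 429 FPKM for .S in slc25a5 (log2 .L over .S 3.92, adjusted p = 1.25e-07, edgeR), at 5181 against 907 FPKM in fbp1 (2.50, adjusted p = 2.41e-07), at 1062 against 186 FPKM in tubb4b (2.51, adjusted p = 2.56e-07) and at 71.0 against 26.5 FPKM in foxi1 (1.41, adjusted p = 6.09e-06). For eef1a1 the difference was small (0.19, adjusted p = 0.00521) and turned to -0.13 with TMM scaling. The krt7 pair was not called (-0.35, adjusted p = 0.0754), since .L was above .S in BB1 and below it in BB2, BB3 and BB4, and it was called .S higher without BB1 (-0.57, adjusted p = 5.25e-06). The agr2 pair was alike, with .L above .S in BB1 alone (-0.27, adjusted p = 0.191, and -0.51, adjusted p = 4.49e-05, without BB1).

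**Figure D5:**
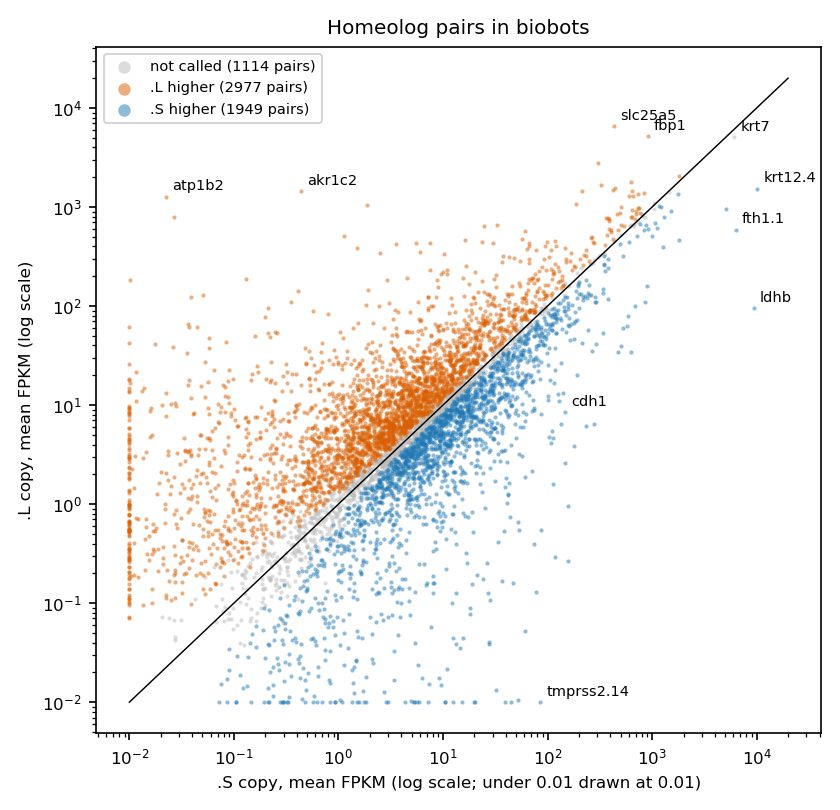
Mean FPKM of the .L copy (vertical, log scale) against the .S copy (horizontal, log scale, values under 0.01 drawn at 0.01) for 6040 tested pairs, coloured by the edgeR call, with a line at equal level. Orange points above the line are the 2977 pairs called .L higher and blue points below it the 1949 called .S higher.

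The widest differences among abundant pairs came close to silence of one copy. On the .L side these were atp1b2, a beta subunit of the sodium pump family, slc27a2, a fatty acid transporter, XB5727854, rhoc, a small GTPase, and akr1c2, an aldo-keto reductase. The levels of atp1b2.L were 1661, 973, 1111 and 1357 FPKM in BB1 to BB4, with 133492 counts over the 4 pools against 4 for atp1b2.S, a length-scaled ratio of 56600 (95% exact interval 22100 to 208000). The copies lie at chr3L:161244388-161249510 and chr3S:131833350-131838915 of the Xenopus_laevis_v10.1 build. The ratio was 30000 (8310 to 248000) for XB5727854, 19100 (6520 to 92400) for rhoc and 3180 (2620 to 3920) for akr1c2, whereas slc27a2.S had no count, which puts slc27a2.L at least 1240-fold higher when 3 counts are allowed in each pool.

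On the .S side stood tmprss2.14, a serine protease, col6a5, a collagen VI chain, ubl5, a ubiquitin-like protein, cmpk1, a nucleotide kinase, and rbis, a ribosome biogenesis factor. The levels of tmprss2.14.S were 112, 90.6, 74.3 and 63.5 FPKM, and tmprss2.14.L had no count, so that .S was at least 1740-fold higher. The ratio of .S to .L was 5330 (2900 to 11100) for col6a5, 1190 (575 to 2950) for ubl5, 601 (457 to 808) for cmpk1 and 591 (311 to 1290) for rbis. These intervals cover counting error only. These 10 pairs were picked among pairs that edgeR had called, so their calls and p-values add no support. The largest adjusted p was 6.12e-06 (edgeR), for slc27a2, and leaving out any 1 pool ended none of the calls. Reads that fit both copies of a pair may have been split or dropped in the authors' counting, so these levels rest on the parts of each gene that differ between its copies.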

How the data were processed

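Total RNA of 12 pools of bots was sequenced without strand marking, and the 4 biobot pools were used here. The submitters' processing notes name HISAT2 2.0.5, StringTie 1.3.3b, featureCounts 1.5.0-p3 and DESeq2 1.20.0. The authors deposited a table of read counts per gene and a table of FPKM for the same 44478 genes. The deposited FPKM could be recomputed from the counts, gene length and DESeq2 size factors over the 12 libraries (largest relative difference 5.22e-15), so their sum differs between pools. Both tables use the Xenopus_laevis_v10.1 build, and 44453 gene identifiers had the same start in the RefSeq gene table. No per-sample column was left unmapped. Overlapping and antisense genes, and copies that share sequence, are uncertain, since reads carried no strand and the treatment of reads that fit several genes is not given in the sources used here.

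Genes were ranked by mean FPKM. Members and marker lists were chosen with earlier results of these data known. Named genes were the 25 most abundant and the up to 6 highest of each epidermal list. Of each other list, the up to 3 highest and the members at 5 FPKM or more were named. Pairs were the 5 with the widest difference each way. They were taken among pairs called with a log2 difference of at least 1 whose higher copy was at 50 FPKM or more. The 5 most variable of the 500 most abundant genes were named as well. Some genes that this rule names are not reported here. Any other gene is said to be chosen after its values were seen, or belongs to a pair or class of these.

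Homeolog pairs were tested on the deposited counts with edgeR 4.0.16 in R 4.3.3 (quasi-likelihood fit, filterByExpr with a minimum count of 10 and a total of 15, library total and gene length as offset, adjusted p threshold 0.05). The .L and .S counts of a pool come from the same library, which pairs them, so the pool was a block in the model. limma 3.58.1 on log2(FPKM + 1), DESeq2 1.42.0, TMM factors, no block, no filter, no length and leaving out each pool were alternatives. On simulated counts for 6040 pairs, edgeR recovered 85% of 200 changed pairs with 11 false calls. The changed pairs differed by 1 on the log2 scale and were drawn from pairs with higher counts. All other simulated pairs had equal copies with no shift towards .L, unlike the data. The simulation therefore does not measure how many calls in the data were right. Tables and figures were made with Python 3.11.15, numpy 2.4.6, pandas 2.3.3, scipy 1.17.1 and matplotlib 3.10.9. Nothing says that the pools came from separate clutches, so the SD and p-values measure the spread between these 4 pools only.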

Additional observations from a re-analysis of the deposited data

Results flagged for a closer look

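Each of 246 values (named genes, list sums and class shares) was screened for a single pool far from the other 3, as the gap to the nearest pool over the whole range of the 4 pools. The screen picked 37 values, and chance alone picks about 1 in 20 independent groups. That rate is no yardstick for the number picked, since some genes were named for their variation between pools and list sums overlap with their own members. BB1 was the pool apart in 19 of them, 16 high and 3 low, BB3 in 13, BB4 in 5 and BB2 in 0.

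BB1 was high for krt7.L (gap over range 0.983), cdh1.S (0.971), XB5774338.L (0.964), eef1a1o.S (0.929), tubb4b.L (0.920), c3.L (0.912), mbp.L (0.902), galnt3.S (0.899), tdrd6.L (0.891), krt70.S (0.871), tekt3.L (0.859), slc27a2.L (0.850) and sox9.S (0.831). It was also high for the share of keratins (0.915), the summed axoneme list (0.850) and the summed basal list (0.835). It was low for foxi1.L (0.882), for the share of the vacuolar proton pump (0.872) and for the summed list of multiciliated cell regulators (0.845).

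BB3 was high for hbd.S (1.00), mpo.L (0.998), apoa1.L (0.997), mmp7.L (0.996), hba2.L (0.995), apoa1.S (0.957) and mpo.S (0.901). Its summed lists were high for erythroid cells (0.991), myeloid cells and leukocytes (0.978), endoderm, gut and liver (0.950), epidermal transcription factors (0.859) and photoreceptors (0.838). These are sums of deposited FPKM, whose total over all genes was also highest in BB3. As a share of that total, the list of epidermal transcription factors was lowest in BB3. XB5727854.S (1.00) rests on 2 counts in all.

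BB4 was high for cryba1.L (0.906) and syt1.L (0.846), and low for mcm2.L (0.874), ccdc50.L (0.854) and the summed skeletal muscle list (0.923).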

How the results depend on the processing

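The counts of pairs called .L higher (2977) and .S higher (1949) were 2802 and 1803 with no replicate block, 2956 and 1943 with limma, 2995 and 1960 with DESeq2, 3026 and 1906 without gene length, and 3110 and 2096 of 7575 pairs without a filter. With TMM factors they were 2462 and 2455, and with limma centred on the median of all pairs, an alternative chosen after seeing the data, 2442 and 2455. With a difference of 1 or more on the log2 scale as well, limma called 1456 pairs .L higher and 803 .S higher without centring, and 1215 and 992 with it, against 2038 and 1130 with edgeR. Without the block eef1a1 was no longer called (adjusted p = 0.157, edgeR). No call among the 10 widest pairs, themselves picked among called pairs, was lost under any alternative. With TMM factors the krt7 pair (-0.67, adjusted p = 0.00514, edgeR) and the agr2 pair (-0.59, adjusted p = 0.0155, edgeR) were called .S higher.

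The median log2 .L over .S was 0.26 with a pseudocount of 1 and 0.17 with no filter on low values. As shares of counts with no length scaling, the 10, 100 and 1000 most abundant genes held 12.8%, 29.6% and 57.8%. With FPKM rescaled to the same sum in each pool, that of TPM, list sums were 142.6 for multiciliated cell regulators, 3324 for the axoneme, 3196 for ionocytes, 20460 for goblet cells, 84.7 for small secretory cells, 103.3 for basal cells, 4176 for the barrier and 1186 for epidermal transcription factors. At a threshold of 5 FPKM 18 other-lineage genes remained above it.

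Leaving out each pool in turn gave 2758 to 3051 pairs for .L and 1790 to 2051 for .S, 2000 to 2076 and 1109 to 1183 with the stricter rule, a median of 0.31, an .L share of 56.3% to 56.7%, 17176 to 17312 genes at 1 FPKM or more and 38 (without BB3) to 48 other-lineage genes. The 10, 100 and 1000 most abundant genes held 14.5% to 14.8%, 36.5% to 37.2% and 70.3% to 70.8%. List sums were 90.97 to 95.8 FPKM for multiciliated cell regulators, 2030 to 2210 for the axoneme, 1997 to 2189 for ionocytes, 12970 to 13660 for goblet cells, 49.4 to 59.7 for small secretory cells, 59.96 to 70.5 for basal cells, 2558 to 2782 for the barrier and 762 to 773 for epidermal transcription factors. Depth limits statements on single genes with 3 counts or fewer in every pool, the highest of which averaged 0.079 FPKM among other-lineage genes.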
